A study of Mus musculus with 5 samples.

Results

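Histone genes were followed in mouse pancreatic cancer cells sorted by their autophagy flux. They were the rows of the deposited expression table whose symbol starts with Hist1h, Hist2h, Hist3h, Hist4h, H2af or H3f3 or equals H1f0 or H1fx, and numbered 89 of 52459. Of these, 70 carry the Hist prefix and are called replication-dependent here, and 19 carry a variant symbol. By class the replication-dependent genes were 6 H1, 20 H2A, 19 H2B, 12 H3 and 13 H4 genes, and 56 of the 70 lie on chromosome 13. They include 3 pseudogenes. The 19 variant rows include 13 protein-coding genes, and the others are pseudogenes (H2af-ps, H2afy3, H3f3a-ps1, H3f3a-ps2 and H3f3c) and H3f3aos, a transcript antisense to H3f3a.

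The cells are HY15549, a mouse pancreatic cancer line of C57BL/6 strain background, and every library carries GFP-LC3-RFP, a reporter whose ratio of green to red signal reads autophagy flux. Organoids grown in Matrigel were taken apart and sorted on that ratio. AThi, the autophagy-high cells, are represented by 2 libraries and ATlo, the autophagy-low cells, by 3. All come from 1 line, the labels name no treatment, and no label used here ties a library to a culture of its own, so p-values speak only to the scatter among these 5. The implied depth was 27.6 to 44.9 M reads per library, at which 3 reads correspond to 0.067 to 0.109 FPKM (fragments per kilobase, relative to the depth of the library) for a transcript of 1 kilobase. Epithelial markers were present in all 5 libraries (Cdh1 at 316 FPKM or more), while all 6 fibroblast and all 4 endothelial markers stayed under 1 FPKM. Of 5 immune markers, Cd68 alone reached 1 FPKM, at 8.68 and 14.7 FPKM in AThi and 4.31 to 4.55 FPKM in ATlo, and the pan-leukocyte marker Ptprc was at 0.04 to 0.05 FPKM. Of 7 acinar and endocrine markers, Ctrb1 alone was above 0, at 0.62 and 0.58 FPKM in AThi and at most 0.03 FPKM in ATlo. Of 6 epithelial markers, the duct keratin Krt7 alone passed the test given below, lower in AThi (-0.67 on the log2 scale). The 5 others did not pass, among them Krt19 (-0.15), Krt8 (-0.29) and Krt18 (0.10). The part of these shifts in the histone values was not tested.

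Histones package DNA into nucleosomes, each with a core of H2A, H2B, H3 and H4 and a linker histone H1 on the DNA between them. Replication-dependent histone genes are clustered, short and without introns, are used mainly in S phase, and give mRNAs that end just behind a conserved stem-loop, bound by SLBP, in place of a poly(A) tail. Variant genes stand alone in the genome, are used throughout the cell cycle and mostly give ordinary polyadenylated mRNAs. The library kit named in the labels selects mRNA by its poly(A) tail, so the values below read mainly the polyadenylated share of these transcripts and not the whole histone mRNA pool.

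The stem-loop is shown for the members that the results turn on, with its 16 bases in capitals and 5 bases on each side, 5′ to 3′ as in the GENCODE M21 transcripts.
Hist1h1c: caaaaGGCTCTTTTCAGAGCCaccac
Hist1h2bg: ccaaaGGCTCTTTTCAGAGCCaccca
Hist3h2a: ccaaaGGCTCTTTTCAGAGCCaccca
Hist1h4i: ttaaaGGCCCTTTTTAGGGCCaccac
Hist1h2bj: ccaaaGGCTCTTTTCAGAGCCacgca
Hist1h3g: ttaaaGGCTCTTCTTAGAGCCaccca
H2afx: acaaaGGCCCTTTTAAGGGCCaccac
The length annotated behind the loop differs widely between them. The annotated transcript goes on for 840 bases behind the stem-loop in Hist1h1c, 155 in Hist1h2bg, 1643 in Hist3h2a and 330 in Hist1h4i, but for only 23 in Hist1h2bj and 47 in Hist1h3g. H2afx, alone among the variants, also holds a match, starting 46 bases after the stop codon and followed by 822 more bases. A match to the stem-loop consensus within 150 bases after the stop codon was found in 46 replication-dependent genes, and in 50 of 21070 protein-coding genes of the annotation (0.237%).

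The 2 kinds of histone gene stood at different levels. Summed over the replication-dependent genes, FPKM came to 59.7 and 64.6 in AThi and to 42.1, 49.0 and 51.9 in ATlo. Variant genes summed to 352 and 378 FPKM in AThi and to 424, 450 and 471 FPKM in ATlo. The libraries of the 2 groups did not overlap in either sum, and the sums moved in opposite directions, with the replication-dependent sum 1.30 times as high in AThi as in ATlo and the variant sum 0.814 times as high. Hist1h1c alone made up 61.2% and 67.6% of the replication-dependent sum in AThi and 39.9% to 41.5% in ATlo. Without Hist1h1c the direction of that sum turned: 23.2 and 20.9 FPKM in AThi against 25.0, 29.5 and 30.4 FPKM in ATlo. In reads per 10 M the groups then overlapped, at 312.7 and 280.6 in AThi and 296.2, 336.1 and 335.7 in ATlo. FPKM are relative within a library, and fewer cells of a kind cannot be told apart from less RNA per cell in such bulk samples.

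Most single genes were near the detection limit. To enter the main test a gene had to average 1 FPKM or more across libraries, which was reached by 5 of 70 replication-dependent and 8 of 19 variant genes. At the other end, 12 replication-dependent and 5 variant genes (H2af-ps, H2afb1, H2afb2, H2afb3 and H2afy3) were at 0 in every library. The test was limma on log2(FPKM + 0.5), with Benjamini-Hochberg adjustment over the 11397 genes tested and a threshold of 0.05, and fold changes are AThi minus ATlo on that log2 scale. In this comparison 51.6% of all tested genes passed, 22.2% higher and 29.4% lower in AThi. Of the 8 variants tested, 6 fell and none rose, the other two not passing, and the median log2 fold change was -0.37. Of the 5 replication-dependent genes tested, 2 rose and 1 fell (Hist1h1c and Hist1h2bg against Hist1h4i), and their median was 0.02, beside -0.03 for all tested genes. Counting groups that do not overlap, 7 of these 8 variants and 2 of these 5 replication-dependent genes were lower in both AThi libraries than in any ATlo library (38.4% of all tested genes), and 2 replication-dependent genes were higher (31.9% of all). These are descriptions of few members in a comparison where over 50% of genes passed, and Hist1h2bg reached the minimum of 1 FPKM only through AThi, the group where it is high.

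**Figure D1:**
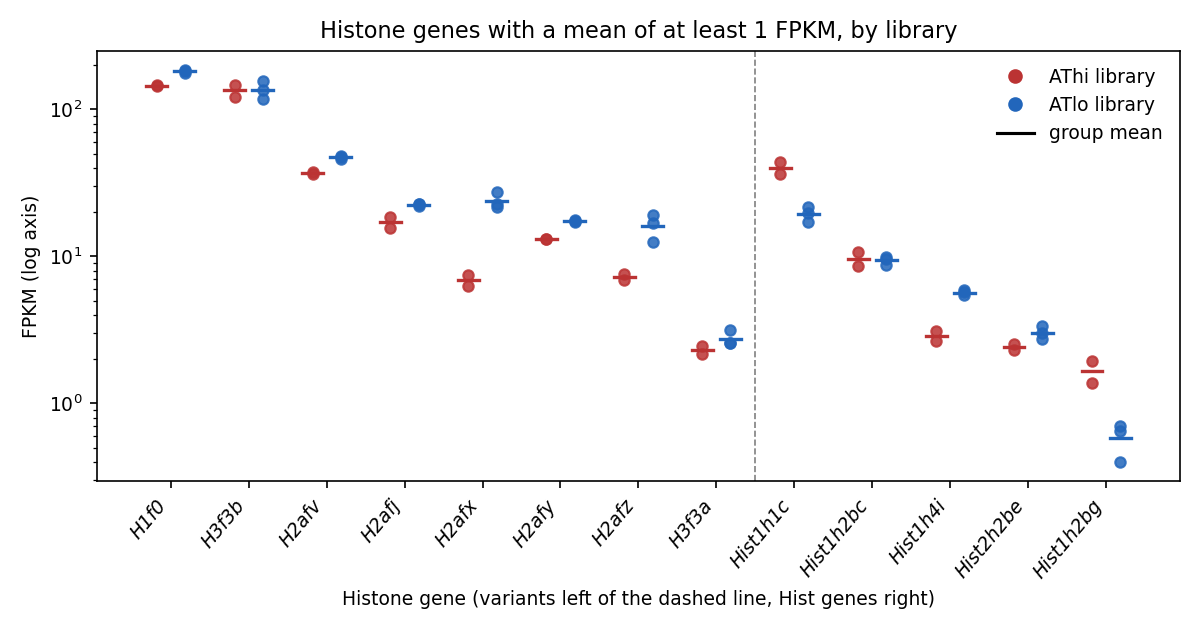
FPKM on a log axis (y) of the 13 histone genes averaging 1 FPKM or more (x), 8 variants left of the dashed line and 5 Hist genes right. Each point is 1 library, red for AThi (n = 2) and blue for ATlo (n = 3), with a bar at the group mean. Lower in both AThi libraries than in any ATlo library are H1f0, H2afj, H2afv, H2afx, H2afy, H2afz, H3f3a, Hist1h4i and Hist2h2be. Hist1h1c and Hist1h2bg are higher, and H3f3b and Hist1h2bc overlap.

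Among the variants of H2A, H2afx changed the most. It encodes H2A.X, the histone that is phosphorylated around DNA breaks, and is a single-exon gene at chr9:44334694-44336077 (GRCm38, plus strand). Its level was 6.29 and 7.49 FPKM in the AThi libraries and 21.6, 22.7 and 27.5 FPKM in the ATlo libraries. Every AThi value was thus below every ATlo value, with means of 6.89 ± 0.849 (SD, n = 2) and 23.9 ± 3.11 FPKM (SD, n = 3), 3.48-fold lower in AThi. The log2 fold change was -1.72 ± 0.12 (SE), with an adjusted p of 9.58e-05 by limma. A 141-base stretch of its exon lies opposite an annotated antisense transcript, Gm44335.

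The next in size was H2afz, which encodes H2A.Z.1, a variant placed at promoters and enhancers. It stood at 6.94 and 7.56 FPKM in AThi and at 12.5, 16.8 and 19.0 FPKM in ATlo. The groups did not overlap, although the 3 ATlo libraries were spread, and the log2 fold change was -1.08 ± 0.16 (limma adjusted p = 0.00175). Of the 50-base runs in its transcripts, 35.4% also occur in other genes, 4 of them pseudogenes, so reads could be split between copies. H2afv, which encodes the sister protein H2A.Z.2 and shares no such run, fell by a smaller amount: 36.6 and 37.2 FPKM in AThi against 45.8, 48.1 and 47.5 FPKM in ATlo, a log2 fold change of -0.35 ± 0.06 (limma adjusted p = 0.00274). Whether H2afz and H2afv differed in their change was not tested.

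The other variants that passed fell by similar, small amounts. H1f0, the gene of the linker histone H1.0, which is typical of cells that divide little, had the highest mean FPKM of the histone genes over the 5 libraries, at 145 and 146 FPKM in AThi and 182, 184 and 178 FPKM in ATlo. Its libraries were tight within each group and apart between them (log2 fold change -0.32 ± 0.06, limma adjusted p = 0.0054). H2afy, which encodes macroH2A1, a large variant of silent chromatin, was at 13.2 FPKM in both AThi libraries and at 17.0, 17.5 and 17.6 FPKM in ATlo (-0.38 ± 0.06, limma adjusted p = 0.00172). H2afj, the gene of H2A.J, was at 18.6 and 15.6 FPKM in AThi and at 22.7, 22.1 and 22.8 FPKM in ATlo (-0.39 ± 0.08, limma adjusted p = 0.00759). The related macroH2A2 gene, H2afy2, was at 0 to 0.04 FPKM in all libraries and was not tested.

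The pair of genes that encode the same H3.3 protein, the H3 variant deposited outside replication, did not pass. H3f3b was at 122 and 147 FPKM in AThi and at 118, 134 and 155 FPKM in ATlo. The ranges overlapped almost fully (log2 fold change -0.01 ± 0.13, limma adjusted p = 0.962). H3f3a was far lower per kilobase, at 2.45 and 2.16 FPKM in AThi and 2.58, 2.56 and 3.13 FPKM in ATlo. Both AThi values lay below all ATlo values, but by less than the test requires (-0.21 ± 0.12, limma adjusted p = 0.164). Of the 50-base runs of H3f3a 13.4% recur in genes that do not overlap it, against 6.9% for H3f3b. H3f3a also shares 638 exon bases with the gene model Gm17275 on the opposite strand. How such reads were counted is not given in the sources used here, so the gap in level between H3f3a and H3f3b is uncertain. The antisense row H3f3aos, which overlaps H3f3a on the opposite strand over 160 bases, went the other way, at 0.71 and 0.52 FPKM in AThi and 0.39, 0.41 and 0.32 FPKM in ATlo. Under a minimum mean of 0.2 FPKM its log2 fold change of 0.35 ± 0.14 had an adjusted p of 0.0923 by limma. H1fx, a replication-independent linker histone gene, was at 0.27 and 0.46 FPKM in AThi and 0.74, 0.78 and 0.52 FPKM in ATlo (-0.45 ± 0.17, limma adjusted p = 0.0725 under the same minimum).

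Among the replication-dependent genes, Hist1h1c was the most abundant and rose. It encodes the linker histone H1.2 and is a single-exon gene at chr13:23738808-23740367 (GRCm38, plus strand). Its level was 36.5 and 43.6 FPKM in AThi and 17.1, 19.6 and 21.5 FPKM in ATlo. All AThi values were above all ATlo values, with means of 40.1 ± 5.01 (SD, n = 2) and 19.4 ± 2.19 FPKM (SD, n = 3), and the log2 fold change was 1.03 ± 0.11 (limma adjusted p = 0.000526). Only 8.5% of its 50-base runs occur in another gene, and the last 50 bases of its annotated transcript hold AATAAA, the usual polyadenylation signal.

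The 4 other replication-dependent genes above 1 FPKM did not share a direction. Hist1h2bg, an H2B gene at chr13:23571396-23572013 (GRCm38, plus strand), was at 1.94 and 1.37 FPKM in AThi and at 0.65, 0.40 and 0.70 FPKM in ATlo, and rose (log2 fold change 0.99 ± 0.20, limma adjusted p = 0.00551). Its group means were 1.66 FPKM in AThi and 0.583 FPKM in ATlo, so it was tested only because of its AThi level. Hist1h4i, an H4 gene at chr13:22040636-22041362 (GRCm38, minus strand), was at 2.64 and 3.09 FPKM in AThi and at 5.42, 5.74 and 5.86 FPKM in ATlo, and fell (-0.88 ± 0.09, limma adjusted p = 0.000359). Neither had groups that overlapped.

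Hist1h2bc, the most abundant H2B gene, was at 10.7 and 8.54 FPKM in AThi and 8.80, 9.91 and 9.63 FPKM in ATlo, with overlapping groups (0.02 ± 0.11, limma adjusted p = 0.885). Hist2h2be, another H2B gene and the only one of these 5 that shares no 50-base run with another gene, was at 2.52 and 2.30 FPKM in AThi and 2.99, 3.36 and 2.73 FPKM in ATlo. Its groups did not overlap, yet it did not pass (-0.27 ± 0.11, limma adjusted p = 0.0701). Hist1h2bg shares 49.7% of its 50-base runs with 14 other genes, first of all Hist1h2bc, so reads of these H2B genes could be split between them.

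With the minimum mean lowered to 0.2 FPKM, 20 replication-dependent genes were tested, of which 4 rose and 3 fell, where 44% of all 14385 genes passed (19.9% higher and 24.2% lower in AThi). Of the 20, 11 reached the minimum through 1 group only, 3 of the called genes (Hist2h3c2, Hist1h2bj and Hist1h3g) among them, and a gene let in that way had to differ, so these counts support nothing about the class. None of the variants added by this minimum passed. The additional genes that rose were Hist3h2a, an H2A gene at 1.37 and 1.23 FPKM in AThi and 0.40, 0.56 and 0.94 FPKM in ATlo (0.69 ± 0.21, limma adjusted p = 0.0347), and Hist2h3c2, an H3 gene at 0.32 and 0.37 FPKM against 0.16, 0.11 and 0.05 FPKM (0.48 ± 0.16, limma adjusted p = 0.0447), where ATlo alone would not have reached the minimum. Exons of Hist3h2a share 708 bases on the same strand with Trim17, so its reads are not certain to be its own.

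Those that fell in addition were Hist1h2bj and Hist1h3g, both of which reached the minimum through ATlo alone. Hist1h2bj, an H2B gene, was at 0.08 and 0.10 FPKM in AThi and 0.31, 0.78 and 1.21 FPKM in ATlo (-1.04 ± 0.30, limma adjusted p = 0.0319). In reads this was 3 in AThi and 41 in ATlo, an 8.45-fold lower rate in AThi with an exact 95% interval of 2.69 to 42.6 that covers counting error only. Hist1h3g, an H3 gene, had no read in either AThi library and 0.27, 0.37 and 0.39 FPKM in ATlo (-0.75 ± 0.15, limma adjusted p = 0.00797). With 3 reads assumed over both AThi libraries, the 21 reads in ATlo gave a 4.33-fold lower rate in AThi. That value takes the ATlo reads as exact, so it is no lower bound.

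Other genes between 0.2 and 1 FPKM did not pass. The H1 gene Hist1h1b was at 0 and 0.09 FPKM in AThi and 0.16, 0.34 and 0.48 FPKM in ATlo (-0.59 ± 0.21, limma adjusted p = 0.0613). An H2A gene, Hist1h2ae, was at 0.15 and 0.06 FPKM against 0.27, 0.36 and 0.62 FPKM (-0.59 ± 0.20, limma adjusted p = 0.0545), and the H3 gene Hist1h3c at 0.23 and 0 against 0.45, 0.31 and 0.45 FPKM (-0.58 ± 0.20, limma adjusted p = 0.0592). These 3 had AThi values below all ATlo values.

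Wide spread among the ATlo libraries marked the next pair. Hist1h2ak (H2A) was at 0 in both AThi libraries and at 0.24, 0.78 and 0.06 FPKM in ATlo (-0.70 ± 0.34, limma adjusted p = 0.141). Hist1h4b (H4) was at 0 and 0.06 FPKM in AThi and at 0.06, 0.77 and 0.39 FPKM in ATlo (-0.70 ± 0.33, limma adjusted p = 0.134).

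In Hist1h2bh (H2B) the AThi values of 0.26 and 0.16 FPKM lay just below the ATlo values of 0.38, 0.33 and 0.29 FPKM (-0.23 ± 0.15, limma adjusted p = 0.244). The groups overlapped in the 5 genes that remain of the 20. Hist1h4h (H4) was at 0.23 and 0.24 against 0.15, 0.47 and 0.54 FPKM (-0.24 ± 0.23, limma adjusted p = 0.426), and Hist1h4c (H4) at 0.04 and 0.27 against 0.26, 0.14 and 0.31 FPKM (-0.19 ± 0.21, limma adjusted p = 0.509).

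The H2B genes Hist3h2ba, at 0.18 and 0.36 against 0.23, 0.32 and 0.50 FPKM (-0.14 ± 0.19, limma adjusted p = 0.592), and Hist1h2bk, at 0 and 0.37 against 0.10, 0.41 and 0.21 FPKM (-0.14 ± 0.29, limma adjusted p = 0.713), showed no shift beyond their spread. The H2A gene Hist1h2ac, at 0.26 and 0.23 FPKM in AThi and 0.11, 0.20 and 0.25 FPKM in ATlo, had a positive value (0.12 ± 0.16, limma adjusted p = 0.563). At these levels a value rests on small numbers of reads.

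**Figure D2:**
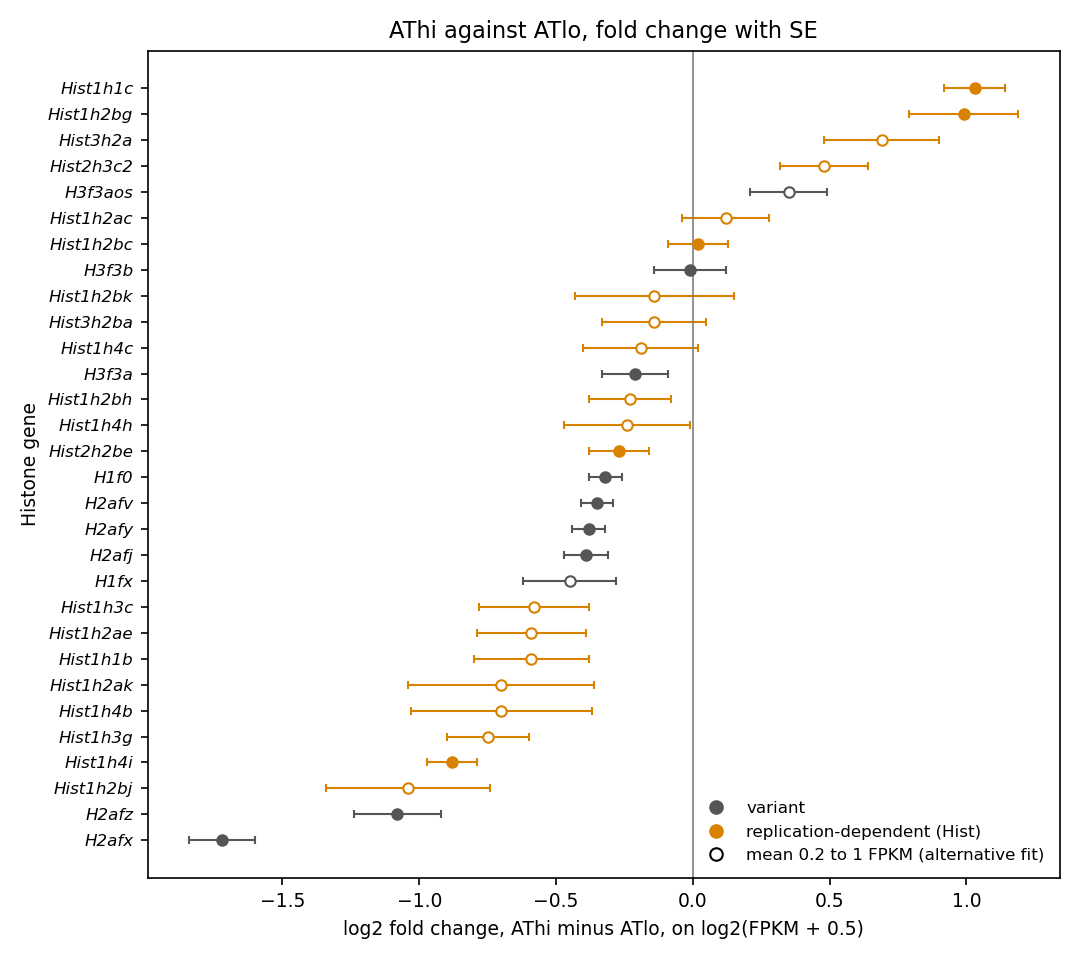
Log2 fold change, AThi minus ATlo, on log2(FPKM + 0.5) (x) of 30 histone genes (y), with bars of 1 SE. Grey points are variants and orange points Hist genes. Filled points come from the main test (13 genes averaging 1 FPKM or more) and open ones from the test with a minimum of 0.2 FPKM. The values run from -1.72 for H2afx to 1.03 for Hist1h1c, and Hist genes lie on both sides of 0.

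Below 1 FPKM the replication-dependent genes leaned to ATlo in FPKM, though not in summed reads. Of the 65, 12 were at 0 throughout, 41 had a lower and 12 a higher mean in AThi. The direction of means was not counted over all genes. Groups did not overlap in 14 with AThi lower and in 5 with AThi higher, which is 26.4% and 9.43% of the 53 genes above 0. Among all 12721 genes above 0 and under 1 FPKM these shares were 8.39% lower and 15% higher. The 65 genes summed to 5.36 and 5.62 FPKM in AThi and to 7.14, 10.1 and 11.4 FPKM in ATlo. In reads per 10 M, which weight long transcripts more, the groups overlapped (91.7 and 90.6 against 72.7, 89.4 and 106). The means in reads were 91.2 in AThi and 89.4 in ATlo. H2B genes under 1 FPKM had the lowest ratio of summed FPKM, AThi to ATlo, at 0.395. H4 genes had 0.484, H3 genes 0.601, H1 genes 0.610 and H2A genes 0.804, with no test between classes. The H1 and H2A sums overlapped between groups. In mean reads per 10 M both went the other way, H1 at 24.5 in AThi and 15.9 in ATlo, H2A at 36.5 and 26.5. A single gene held most of the AThi reads in each. Hist1h1d held 55 of 62 and 100 of 119 H1 reads in AThi, and 31 of 51, 37 of 60 and 29 of 74 in ATlo. Hist3h2a held 81 of 107 and 119 of 153 H2A reads in AThi, and 36 of 67, 43 of 96 and 79 of 145 in ATlo. H2B, H3 and H4 genes were lower in AThi in reads too.

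The 46 genes with a stem-loop match differ in how far the annotated transcript runs behind it. A border of 100 bases, set after the values were seen, left 23 genes on each side. None of the 23 with an end within 100 bases reached 1 FPKM; their means ran from 0 to 0.496 FPKM with a median of 0.086. The AATAAA signal stood in the last 50 annotated bases of none of these, and in 10 of the 23 with a longer end. In most of the short-ended genes those 50 bases reach back into the stem-loop, which leaves little room for the signal. The contrast is therefore partly set by the grouping. Longer-ended genes had a median of 0.174 FPKM, with 20 of the 23 also under 1 FPKM, and included the 3 that exceeded 1 FPKM, namely Hist1h1c, Hist1h4i and Hist1h2bg.

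Genes with the short annotated end were lower in AThi. They held 4.0 and 6.5 reads per 10 M in the AThi libraries and 15, 21.9 and 25 in the ATlo libraries, with means of 5.25 ± 1.77 (SD, n = 2) and 20.6 ± 5.12 (SD, n = 3), so ATlo held 3.93 times as many. These rates rest on few reads, 11 and 29 in AThi and 63, 79 and 98 in ATlo, summed over the 23 genes. The summed FPKM of these genes showed the same order, at 0.75 and 1.3 in AThi and 2.85, 4.51 and 5.02 in ATlo. AThi means were lower in 16 and higher in 2 of the 23, and the groups did not overlap in 6 that were lower and 1 that was higher, Hist1h2ad, with 5 reads in AThi and 1 in ATlo. Over all genes above 0 and under 1 FPKM, 8.39% were lower and 15% higher without overlap, as given above. The short-ended genes also shared more sequence with other genes than the longer-ended ones. The median share of a gene's runs found in other genes was 60.4% against 24.6%. The part of shared sequence in the lower AThi values was not tested. Another 17 coding genes without a match end within 100 bases of the stop codon. Most of their models end at the stop codon or within 2 bases of it, which leaves no room for a match. Of the 17, 11 had a lower and 2 a higher mean in AThi, and the groups did not overlap in 4 that were lower and 0 that were higher.

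Genes with the longer annotated end went both ways. Among the 23, groups did not overlap in 5 that were lower in AThi (Hist1h2ae, Hist1h2bh, Hist1h4a, Hist1h4d and Hist1h4i) and in 6 that were higher (Hist1h1c, Hist1h1d, Hist1h2bg, Hist1h3e, Hist2h3c2 and Hist3h2a). The shares over all genes were 8.39% lower and 15% higher under 1 FPKM, where 4 and 4 of these lie, and 38.4% and 31.9% from 1 FPKM up. Without Hist1h1c they held 116 and 114 reads per 10 M in AThi and 95, 100.3 and 117 in ATlo, so these ranges overlapped. In summed FPKM the same 22 genes did not overlap and were lower in AThi, at 8.51 and 8.48 against 9.05, 9.27 and 10.9. Without the 3 genes above 1 FPKM the reads were 84.8 and 82.6 per 10 M in AThi and 51.5, 56.1 and 70.2 in ATlo. AThi was thus higher in reads, but Hist3h2a and Hist1h1d held much of them. Of the 234 and 371 AThi reads of this set, Hist3h2a held 81 and 119 and Hist1h1d 55 and 100. Of the 217, 202 and 275 ATlo reads, Hist3h2a held 36, 43 and 79 and Hist1h1d 31, 37 and 29. The summed FPKM of the set, 3.93 and 4.02 in AThi, overlapped with 2.98, 3.13 and 4.37 in ATlo. The order of the longer-ended sums thus differed between reads and FPKM. Under 1 FPKM the reads rest largely on Hist3h2a and Hist1h1d, whose annotated exons span 2146 and 7425 bases. Hist1h1d, the H1.3 gene, whose annotated transcript runs 4884 bases behind the stem-loop, had 155 reads in AThi and 97 in ATlo (0.27 and 0.30 against 0.10, 0.14 and 0.10 FPKM). The FPKM denominator is the annotated length, so a transcript that ends at the stem-loop of a long gene model is counted at a lower FPKM. The libraries do not tell which 3′ end a read's transcript had.

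**Figure D3:**
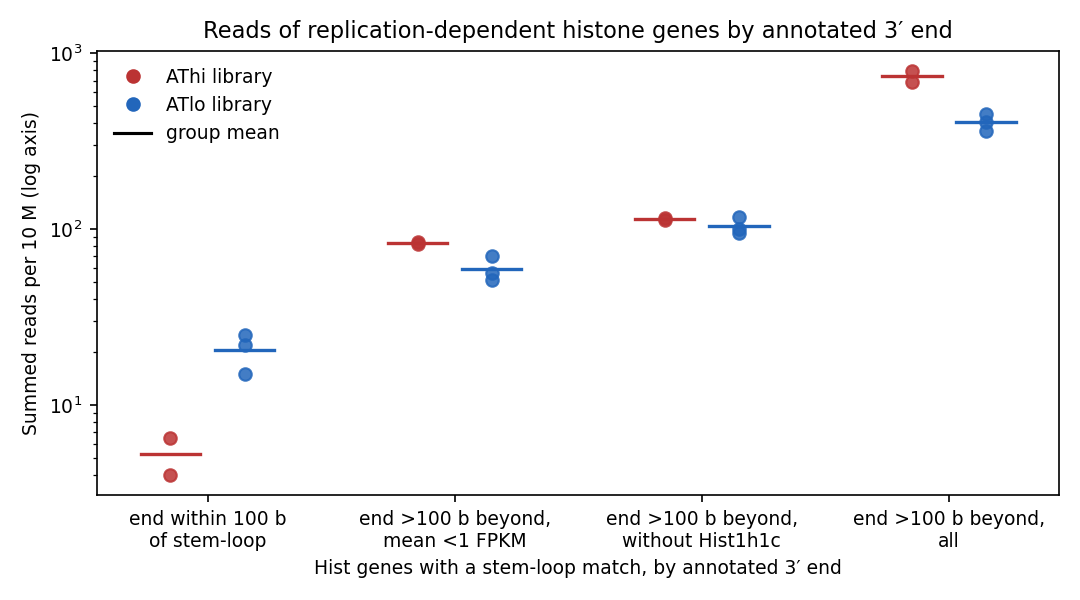
Summed reads per 10 M (y, log axis) of Hist genes with a stem-loop match, by the annotated 3′ end (x): 23 genes ending within 100 bases of the stem-loop, the 20 longer-ended genes under 1 FPKM, the 22 longer-ended genes without Hist1h1c, and all 23 longer-ended genes. Points are libraries, red for AThi (n = 2) and blue for ATlo (n = 3), with bars at group means. The shorter-ended genes are lower in AThi (5.25 against 20.6). The longer-ended genes under 1 FPKM are higher in reads, many of them from Hist3h2a and Hist1h1d. In summed FPKM the groups overlap for this set.

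**Figure D4:**
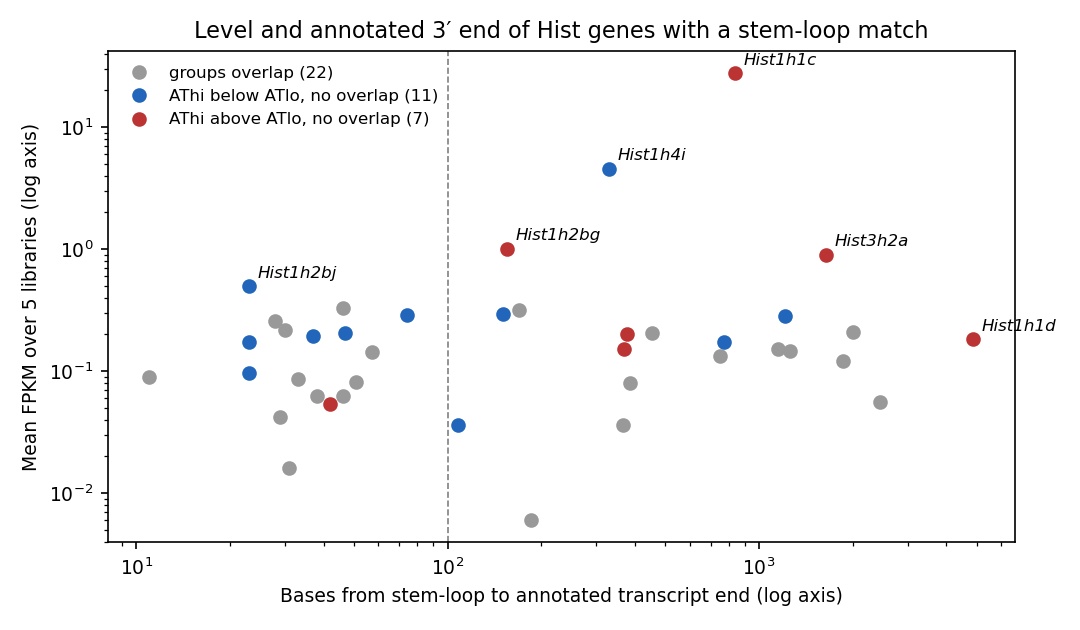
Mean FPKM over the 5 libraries (y, log axis) against the bases from the stem-loop to the annotated transcript end (x, log axis), for the 40 Hist genes with a stem-loop match and a mean above 0. Blue points have both AThi libraries below all ATlo libraries (11 genes), red ones above (7 genes), and grey ones overlap (22 genes). Of the 7 red points, 6 lie right of the dashed line at 100 bases.

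Neighbouring genes could differ in direction, as did a pair picked after its values were seen. Head-to-head pairs of an H2A and an H2B gene, with start sites at most 500 bases apart, numbered 14 among the members. Hist1h2ae and Hist1h2bg start 175 bases apart on opposite strands. Hist1h2ae was lower and Hist1h2bg higher in both AThi libraries than in any ATlo library, as given above. However, Hist1h2ae had only 5 reads in AThi and did not pass (limma adjusted p = 0.0545). Hist1h2bg was tested only because of its AThi level. The whole stretch between them, chr13:23571221-23571395 (GRCm38.p6, plus strand, from RefSeq), is shown because both genes start from it, with the motifs searched for in capitals.
Hist1h2ae to Hist1h2bg: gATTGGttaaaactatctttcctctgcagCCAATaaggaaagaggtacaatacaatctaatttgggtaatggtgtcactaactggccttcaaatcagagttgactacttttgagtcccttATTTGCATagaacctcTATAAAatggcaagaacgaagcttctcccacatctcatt
It holds 2 CCAAT boxes (one of them as ATTGG, its other strand), 1 octamer ATTTGCAT and 1 TATA box TATAAA, the last 2 nearer to Hist1h2bg.

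A different picture held for Hist1h2ag and Hist1h2bj, 269 bases apart, where both were lower in AThi: Hist1h2ag was at 0 in both AThi libraries and at 0.05, 0.17 and 0.26 FPKM in ATlo. In 2 other pairs the H2B gene carried nearly all of the signal. Hist2h2ac was at 0 and 0.09 FPKM in AThi and 0.18, 0.05 and 0.39 FPKM in ATlo, beside Hist2h2be at 2.30 to 3.36 FPKM, and Hist1h2ac stood at 0.11 to 0.26 FPKM beside Hist1h2bc at 8.54 to 10.7 FPKM.

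**Figure D5:**
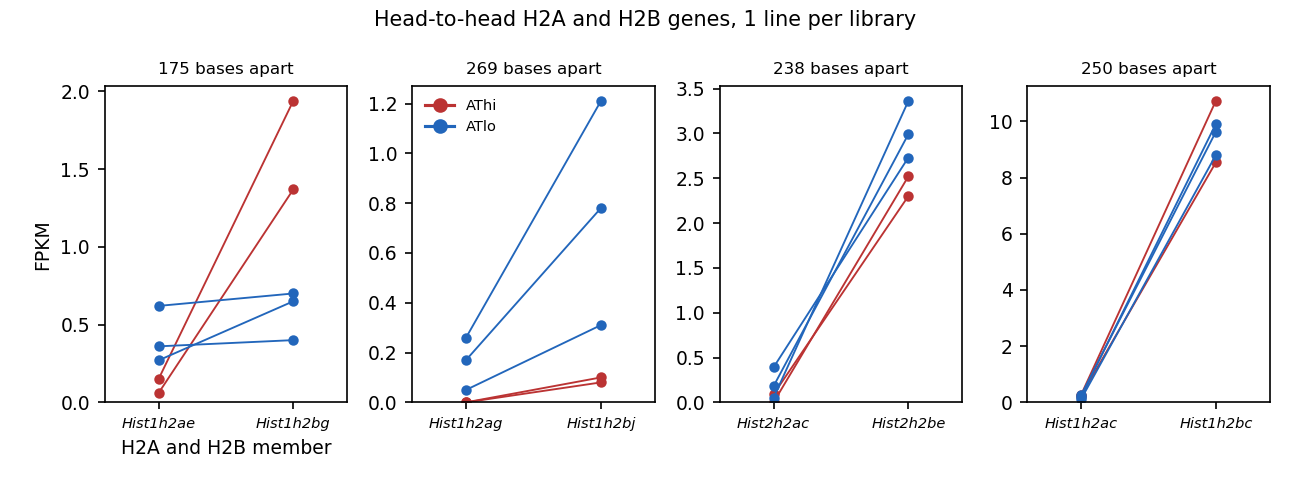
FPKM (y) of 4 head-to-head pairs of an H2A gene (left of each panel) and an H2B gene (right), with 1 line per library, red for AThi (n = 2) and blue for ATlo (n = 3), and the bases between the start sites above each panel. Lines of AThi and ATlo cross between Hist1h2ae and Hist1h2bg, and both genes of the Hist1h2ag and Hist1h2bj pair are lower in AThi.

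Promoter windows of 250 bases before to 50 after the start were found in RefSeq (GRCm38.p6) for 72 of the 89 genes, and 3 motifs were searched on both strands: the CCAAT box, the TATA box spelled TATAAA, and the octamer. CCAAT stood in 85.2% of the 61 replication-dependent windows, in 72.7% of the 11 variant windows and in 37.4% of all 32851 windows. TATAAA stood in 55.7% of replication-dependent windows, in none of the variant windows and in 13.6% of all. The octamer was found in 7 of 18 H2A and 6 of 16 H2B windows, in no H1, H3 or H4 window, and in 1.74% of all. Windows of head-to-head H2A and H2B genes can cover the same stretch, so the same match can be counted for both genes. CCAAT was in every H1, H2A, H2B and H3 window and in 3 of the 12 H4 windows. These matches describe letters in the window and were not set against the expression values.

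Many members have near-copies at other places in the genome. A median of 48.1% of the 50-base runs of a replication-dependent gene occur in genes that do not overlap it, against 6.9% for the variants. Of the 16 replication-dependent genes with over 80% of their runs so shared, 8 were at 0 in every library and the highest mean was 0.082 FPKM. Of the 13 with at most 10% so shared, 1 was at 0 throughout. Many H2A genes also lie opposite a short antisense gene model, and the strand setting of the counting is not given in the sources used here.

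Genes that make and handle histone mRNA were counted beside the 29.4% of all tested genes that were lower and the 22.2% that were higher in AThi. Among 15 tested genes for transcription and 3′-end formation of histone mRNA, 8 fell and none rose (median -0.18, against -0.03 for all tested genes). Slbp, whose protein binds the stem-loop, was at 4.12 and 3.89 FPKM in AThi and 5.98, 7.0 and 6.76 FPKM in ATlo (-0.65 ± 0.09, limma adjusted p = 0.00112). Npat, the coactivator of histone gene transcription, did not pass (-0.02 ± 0.11, limma adjusted p = 0.894). The largest falls were those of Ncbp1, a cap-binding subunit (-0.99 ± 0.09, limma adjusted p = 0.000257), Srrt, its partner ARS2 (-0.69 ± 0.09, limma adjusted p = 0.00106), and Slbp.

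In the list of 8 genes for decay of histone mRNA, 4 fell and 2 rose, the latter a share close to the 22.2% of all genes. The genes that rose were the terminal uridylyltransferase genes Zcchc11 (0.85 ± 0.10, limma adjusted p = 0.000668) and Zcchc6 (0.27 ± 0.07, limma adjusted p = 0.0139). Upf1, a helicase of mRNA decay, fell (-0.54 ± 0.06, limma adjusted p = 0.000587), as did Lsm1 (-0.48 ± 0.07, limma adjusted p = 0.00179) and Slbp, which is in both lists, and Eri1, a 3′ exonuclease gene, was the fourth.

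Among 24 tested histone chaperones and deposition factors, 15 fell and 1 rose (median -0.38), where 29.4% and 22.2% of all genes did. Asf1b (-2.55 ± 0.07), Chaf1a (-2.11 ± 0.09) and Chaf1b (-1.41 ± 0.10), which hand new H3 and H4 to replicating DNA, fell the most, and Ubn2, a subunit of the H3.3 chaperone HIRA, rose (0.46 ± 0.13, limma adjusted p = 0.0202). Cenpa, the centromeric H3 variant whose symbol lies outside the rule, was at 1.0 and 1.2 FPKM in AThi and 9.71, 12.2 and 13.5 FPKM in ATlo (-2.93 ± 0.14). All 12 genes of an S-phase and proliferation list (Pcna, Mcm2 to Mcm7, Ccne1, Ccne2, Ccna2, Rrm2 and Mki67) fell, with a median of -1.67. Among the histone genes that passed the main test, the 6 variants and Hist1h4i moved in the same direction as that list. Hist1h1c and Hist1h2bg moved in the opposite one. The part of S-phase cells in the histone values was not tested.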

How the data were processed

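RNA-seq of 5 libraries was used: 2 AThi and 3 ATlo, grouped by their labels. The authors deposited 1 table of FPKM values, rounded to 2 decimals, with a column per library. Per the submitters' processing notes, reads were handled with STAR, bcl2fastq, DESeq2 and featureCounts, and both mm10 and GRCm38 are named as builds. The sources used here give neither versions nor how multi-mapping reads and strand were treated. No counts were used. Reads were recovered from FPKM, GENCODE M21 exon length and an implied depth per library (27.6, 44.9, 42.1, 36.0 and 39.2 M reads). Of 137 member values of up to 20 reads, 88.3% were whole within 0.1 read and 100% within 0.2, so they served for description only. All 89 symbols matched 1 annotated gene.

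The 11397 genes averaging 1 FPKM or more entered a limma fit (version 3.58.1, R 4.3.3; eBayes with a mean-variance trend) of log2(FPKM + 0.5) on group alone, with two-sided tests and Benjamini-Hochberg adjustment over all tested genes. The pseudocount understates changes of low genes. Shared sequence was the share of 50-base runs found in transcripts of another gene on either strand, for genes as a whole or leaving out genes whose exons overlap. The stem-loop consensus was searched within 150 bases after the stop codon. Promoter windows were matched through Entrez gene identifiers. Coordinates are 1-based. The members and gene lists were chosen with earlier results of these data known. Named were all variants of at least 1 FPKM, the 20 most abundant replication-dependent genes, members that went against most of their class, and from the other lists the 3 largest calls in each direction with Slbp and Npat. The H2A and H2B pairs and the 100-base border were picked after their values were seen. Alternatives were other pseudocounts, minimum means, scalings, robust moderation, a replicate block, leaving out each library, and members with no shared run.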

Additional observations from a re-analysis of the deposited data

How the results depend on the processing

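Of the 13 histone genes tested, 12 kept their call under every alternative that could give a value, including each library left out, and Hist2h2be passed under the replicate block alone (-0.34, adjusted p = 0.0378). H3f3b and Hist1h2bc, which did not pass, had values of either sign (-0.14 to 0.13 and -0.14 to 0.18). Replication-dependent genes past the threshold numbered 3 of 5, and 7 of 58 with no minimum mean, 7 of 20 at 0.2 FPKM, 1 of 2 at 5 FPKM and 0 of 1 (Hist2h2be, limma unadjusted p = 0.0391) among those sharing no 50-base run. Their median log2 fold change of 0.02 became -0.16, -0.24, 0.52 and -0.27 under these settings, and with single libraries left out it ran from -0.14 (without AThi replicate 1) to 0.18 (without AThi replicate 2), so its sign is not settled. For the variants, 6 passed and 1 of 1 among those sharing no run, and the median of -0.37 became -0.26 after quantile normalization. The log2 ratio of the replication-dependent sum, 0.38, turned to -0.52 without members sharing a run, which leaves 4 genes, and to -0.36 without Hist1h1c, an alternative chosen after seeing the data. Over all genes, 5884 passed, 5909 with the replicate block and 4309 to 5718 with a library left out. Replicate numbers 1 and 2, and a title code for each, recur in both groups, but no label says what the code means or that they pair libraries, and the differences of replicate 1 and 2 had a correlation of 0.29 between groups across genes. With 2 AThi libraries, the shallower at 27.6 M reads, genes under 0.2 FPKM rest on few reads.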
